A study of Mus musculus with 8 samples.

Results

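The 29 genes described here encode the peroxisome's assembly machinery and much of its lipid chemistry: 13 peroxins, 13 enzymes and 3 transporters of the ABCD family. They were chosen by gene name, with earlier results of these data known. Where a gene had several probes, the one that was brightest on average was taken, and together they are 29 of the 18312 features measured (1 probe per named gene, plus unnamed probes). The samples were total RNA from developing adipose tissue of C57BL/6 mice at 4 embryonic stages (e15.5, then e16.5, e17.5, and lastly e18.5) and 4 postnatal ones (P0, P2, P5 and P12), with 1 array per stage. Each array held a pool, given in the labels as at least 3 embryos in one place and as 4 in another, and the tissue is called WAT (white adipose tissue) without a named depot. No stage was replicated, no genetic change or treatment was applied, and all stages share the same strain. Values are log2 intensities on Illumina MouseRef-8 BeadChips, whose probes differ in brightness for reasons other than transcript abundance, so the level of 1 gene is not set against that of another.

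Peroxisomes are small membrane-bound organelles that shorten very-long-chain and branched fatty acids, which mitochondria handle poorly, and destroy the hydrogen peroxide that this chemistry makes. Their proteins are made in the cytosol. Peroxins insert the membrane proteins, carry the enzymes in through receptors that are pulled back out and reused, and divide the organelle. In fat cells peroxisomes multiply as precursors turn into adipocytes, and brown fat is especially rich in them.

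Intensities ran from 6.66 to 15.1 with a median of 6.99, and each array had 8318 to 8324 of its 25697 probes at 7.5 or above. A level under 7.5 is called near the floor below, and where the lower level of a pair lies there the fold is computed against 7.5 and stated as a lower bound. The tissue label was set against marker lists. Of 11 adipocyte markers tested, 10 rose with stage, and the list's mean level was 8.10 at e15.5 and 11.70 at P12, while the Fabp4 and Cd36 probes stayed near the floor. Several brown fat markers were present as well, and 5 of 7 tested rose. Ucp1, which uncouples respiration in brown and beige fat, read 6.81 at e15.5, 12.95 at P5 and 11.95 at P12. Fabp3 and Ppargc1a did not pass the test, the Dio2 probe stayed near the floor, and Elovl3 reached 7.5 only at P0 (7.7). Skeletal muscle and epidermis markers stood highest in the e15.5 and P0 pools. The mean of the 16 muscle markers tested was 12.61 at e15.5 and 11.32 at P0, and 7.55 to 8.94 at the other 6 stages, while the mean of the 9 epidermis markers tested was 11.70 at e15.5 and 10.61 at P0, 9.45 at e16.5 and 8.83 at P2, and 7.25 to 7.62 at the other 4 stages. Their part in the results below was not tested beyond the fits that carry these means as a covariate or leave out those arrays. In pooled tissue, fewer cells of a type and less RNA per cell cannot be told apart.

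Promoter sequence is shown for 4 members: Acaa1b and Cat, which had the widest ranges among the enzymes of fatty acid and peroxide breakdown, Acaa1a as the close relative of Acaa1b, and Pex11a, which had the widest range among the peroxins. RefSeq promoters on build GRCm38.p6 were matched by symbol for 22 of the 29 genes, as 26 promoters; Pex2, Pex19, Abcd2, Abcd4, Amacr, Hsd17b4 and Crat had no match. The 250 bases before each transcription start are printed 5′ to 3′ on the gene's own strand. Capitals mark every CCAAT motif and its reverse complement ATTGG. The windows are chr2:103485154-103485403 for Cat (minus strand), chr9:119157094-119157343 for Acaa1b (minus strand), chr9:119341044-119341293 for Acaa1a (plus strand) and chr7:79743132-79743381 for Pex11a (minus strand).
Cat: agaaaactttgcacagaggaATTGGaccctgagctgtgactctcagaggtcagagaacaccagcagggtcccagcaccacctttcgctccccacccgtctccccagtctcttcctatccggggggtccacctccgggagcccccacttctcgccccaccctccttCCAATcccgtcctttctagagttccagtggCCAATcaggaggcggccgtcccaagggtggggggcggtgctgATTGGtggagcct
Acaa1b: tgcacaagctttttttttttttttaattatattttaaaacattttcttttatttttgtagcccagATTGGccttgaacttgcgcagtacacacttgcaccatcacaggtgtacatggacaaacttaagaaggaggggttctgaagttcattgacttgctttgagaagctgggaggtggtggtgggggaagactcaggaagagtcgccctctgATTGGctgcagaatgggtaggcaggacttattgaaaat
Acaa1a: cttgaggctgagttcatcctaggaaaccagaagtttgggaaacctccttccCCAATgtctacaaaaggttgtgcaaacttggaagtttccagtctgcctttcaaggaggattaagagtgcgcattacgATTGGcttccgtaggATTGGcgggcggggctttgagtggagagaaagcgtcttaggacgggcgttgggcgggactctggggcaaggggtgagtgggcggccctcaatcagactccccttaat
Pex11a: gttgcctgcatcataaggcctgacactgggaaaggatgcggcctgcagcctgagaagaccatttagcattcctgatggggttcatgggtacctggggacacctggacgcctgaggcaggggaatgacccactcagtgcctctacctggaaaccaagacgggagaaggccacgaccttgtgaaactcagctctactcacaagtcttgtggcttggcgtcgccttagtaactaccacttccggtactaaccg

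In all, 4 short motifs were searched on both strands of these windows. CCAAT was found in 10 of the members' 26 promoters (9 of the 22 matched genes), against 33.8% of the 32851 promoters of the table. Cat held 4 copies, a number reached by 0.84% of promoters; Acaa1a held 3 copies (2.79% of promoters hold at least 3) and Acaa1b held 2 (10.1% hold at least 2). The GC box GGGCGG was found in 16 of the 26 promoters (15 of the 22 genes), against 32.7% of promoters. The members' windows had a median GC content of 57.0% against 52.4% over the table. The nuclear receptor core motif AGGTCA was found in 3 of the 26 promoters (those of Cat, Scp2 and Pex11g), against 14.0% of promoters. The direct repeat AGGTCANAGGTCA, which PPAR and RXR pairs bind, was found in 0 of the 26 promoters and in 0.0335% of promoters. The printed Pex11a window held none of the 4 motifs. A match is a description of the letters in this window only.

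Rises with stage were found in 5 of the 13 peroxins, 8 of the 13 enzymes and 1 of the 3 transporters, and no member fell. A line through stage order, fitted with limma across the 7446 features that reached 7.5 on at least 2 arrays, found 14 of the 29 members higher with stage at an adjusted p under 0.05 and 0 lower. Over all features tested, 18.3% rose by the same test and 20.7% fell. The 14 were 5 peroxins (Pex3, Pex16, Pex7, Pex2 and Pex11g), 8 enzymes (Acox3, Hsd17b4, Acaa1a, Acaa1b, Scp2, Ech1, Crat and Cat) and the transporter Abcd2. A further 7 members were tested and did not pass, and 8 were not tested because they stayed near the floor. A gene that is near the floor early and bright later passes such a filter because of its late arrays, so shares are not computed over the tested members. Over all 29, tested or not, the median slope was 0.12 log2 per stage, against -0.0002 over all 18312 features. The errors given are standard errors of the fitted slope. The p-values set the slope against the scatter of single pools around the line, which includes any bend in the course.

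**Figure D1:**
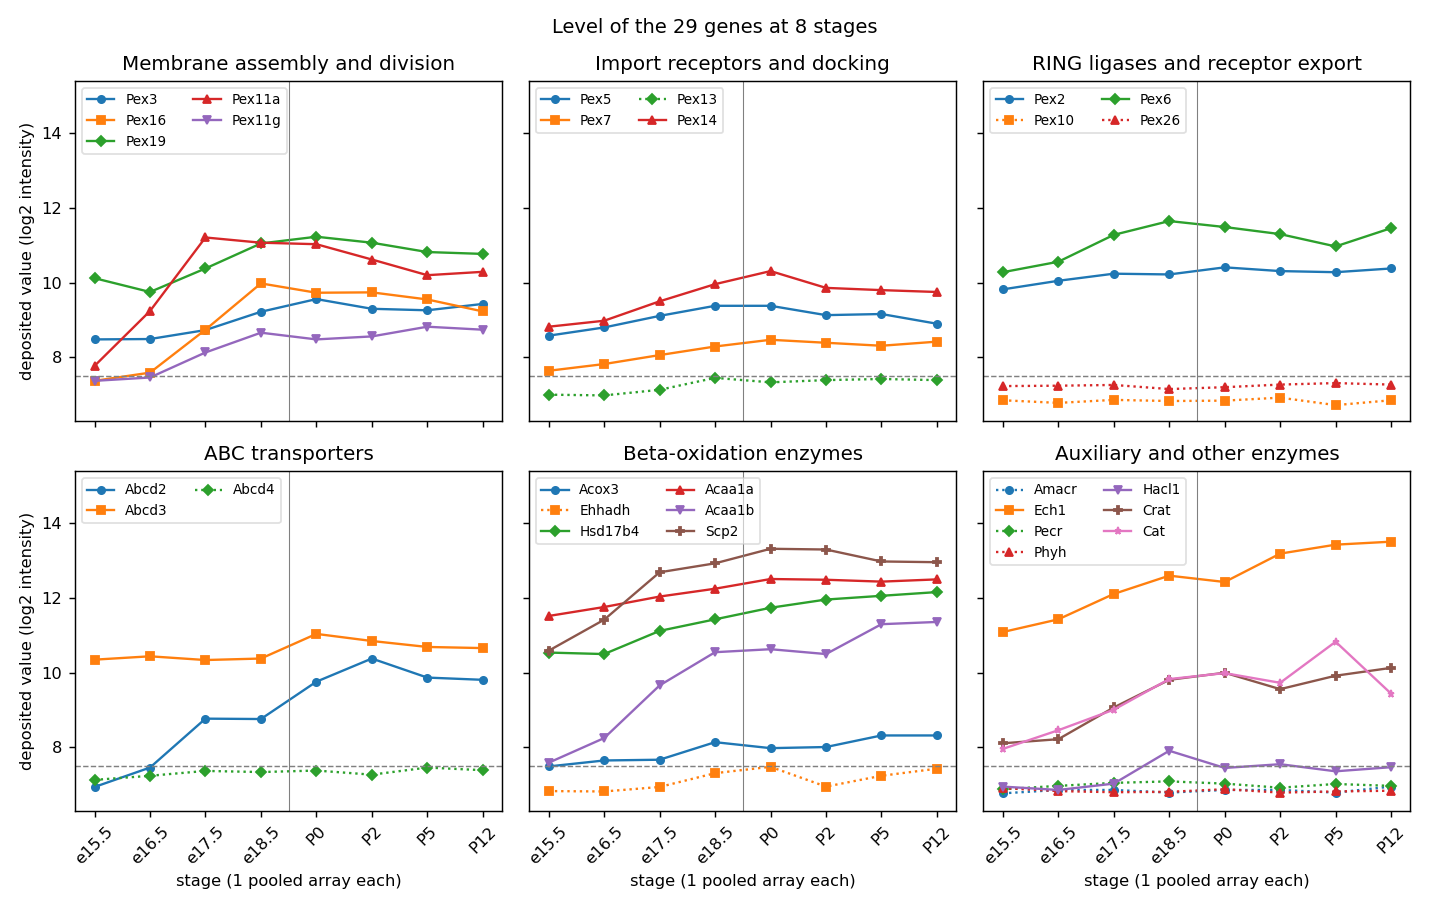
Log2 intensity (vertical axis) of the 29 genes, grouped by role, at the 8 stages in time order (horizontal axis), 1 point per pooled array, with the 7.5 level dashed, birth as a vertical line and genes that were not tested dotted. Of the 29 genes 26 were higher at e18.5 than at e15.5, and the 8 genes that were not tested stayed under 7.5 throughout.

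Of the genes that build the peroxisomal membrane, Pex3 and Pex16 rose. Pex3 is the membrane anchor for newly made membrane proteins. Its levels were 8.48, 8.49, 8.73 and 9.22 at e15.5 to e18.5 and 9.56, 9.30, 9.26 and 9.43 at P0 to P12. All 4 postnatal values were above all 4 embryonic ones, and the slope was 0.15 log2 per stage (SE 0.034, adjusted p = 0.011). Pex16 helps to place Pex3 in the membrane. It read 7.37, 7.59, 8.74 and 9.98 before birth and 9.73, 9.74, 9.55 and 9.23 after it. The 2 earliest arrays stood apart as low, e18.5 was the highest, and the level at e18.5 was at least 5.58-fold that at e15.5 (slope 0.30, SE 0.097, adjusted p = 0.0375). That call was lost when any of the e15.5, e16.5, e17.5, P2 or P5 arrays was left out (adjusted p 0.056 to 0.173). Pex19, the cytosolic carrier of membrane proteins, ranged from 9.75 at e16.5 to 11.23 at P0 and missed the threshold (slope 0.14, SE 0.055, adjusted p = 0.0672; 0.0495 without e18.5). Its dimmer probe, ILMN_2970834, had a slope of the other sign: it read 7.94 at P0, 6.88 at P5 and 6.82 at P12, with a slope of -0.062 (SE 0.056, adjusted p = 0.401 over the 9387 probes tested singly).

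Among the receptors and docking proteins of matrix import, Pex7 alone passed. This gene, the receptor for enzymes with the amino-terminal signal, such as the thiolases, read 7.64, 7.82, 8.06 and 8.29 before birth and 8.47, 8.39, 8.31 and 8.42 after it. The groups did not overlap, and the postnatal values had an SD of 0.07 (slope 0.11, SE 0.026, adjusted p = 0.0127; 0.0662 without e15.5). Pex5, the receptor for the carboxy-terminal signal that most matrix enzymes carry, had the smallest slope of the tested members. It read 8.58, 8.80, 9.11 and 9.38 before birth and 9.38, 9.13, 9.16 and 8.90 after it. The middle arrays were highest and the P12 value fell between those of e16.5 and e17.5, so a straight line described it poorly (slope 0.049, SE 0.038, adjusted p = 0.331). Pex14, where cargo-loaded receptors dock, ranged from 8.82 at e15.5 to 10.31 at P0 and missed the threshold (slope 0.14, SE 0.053, adjusted p = 0.0604). It passed when e18.5, P0 or P12 was left out (adjusted p 0.0398 to 0.0495). Its docking partner Pex13 stayed near the floor, at 6.98 to 7.45.

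Of the 4 genes that recycle the receptors, Pex2 and Pex6 were above the floor at every stage. Pex2, a subunit of the ubiquitin ligase that marks receptors for export, read 9.82, 10.05, 10.24 and 10.22 before birth and 10.41, 10.31, 10.28 and 10.38 after it. The groups did not overlap, but the whole range was 0.59 log2 (slope 0.065, SE 0.021, adjusted p = 0.0385). The call was lost without any of e15.5, e16.5, P2, P5 or P12 (adjusted p 0.0523 to 0.196). Pex6, an ATPase that pulls receptors back out, was lowest at e15.5 (10.28), highest at e18.5 (11.65) and did not pass (slope 0.12, SE 0.056, adjusted p = 0.115). The ligase subunit Pex10 and the ATPase's anchor Pex26 stayed near the floor, at 6.72 to 6.92 and 7.15 to 7.31.

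Pex11a and Pex11g, which elongate and divide peroxisomes, followed different courses. Pex11a had the widest range among the peroxins. Its levels were 7.77, 9.24, 11.21 and 11.07 before birth and 11.03, 10.62, 10.20 and 10.29 after it. The level at e17.5 was 10.8-fold that at e15.5, and every later array lay below e17.5. A line fitted this shape poorly (slope 0.25, SE 0.14, adjusted p = 0.194), and without the e15.5 and e16.5 arrays the slope was -0.22 (SE 0.037, adjusted p = 0.0296), a setting chosen after the levels had been seen. The other tested Pex11a probe, ILMN_2960982, also had its lowest value at e15.5 (7.18) and its highest at e17.5 (9.95). Pex11g read 7.37, 7.46, 8.13 and 8.66 before birth and 8.48, 8.56, 8.82 and 8.74 after it. It kept its level after birth, was highest at P5, at least 2.50-fold over e15.5, and rose along the line (slope 0.21, SE 0.039, adjusted p = 0.00522).

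The transporters differed in timing. Abcd2, which imports very-long-chain acyl-CoAs and is the ABCD member best known from fat, read 6.94, 7.46, 8.77 and 8.76 before birth and 9.76, 10.38, 9.87 and 9.81 after it. All postnatal values exceeded the embryonic ones, and P2 was at least 7.36-fold over e15.5, which was near the floor (slope 0.45, SE 0.077, adjusted p = 0.00385). Its other probe gave a slope of 0.34 (adjusted p = 0.00208 over single probes). Abcd3, which imports branched and dicarboxylic acyl-CoAs, was flat before birth, at 10.35, 10.44, 10.34 and 10.38, and read 11.04, 10.85, 10.69 and 10.66 after it. The 4 embryonic values had an SD of 0.04 and all postnatal values lay above them, but the line did not pass (slope 0.067, SE 0.032, adjusted p = 0.123). Abcd4, which works at lysosomes in cobalamin transport, stayed near the floor at 7.13 to 7.46.

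Among the enzymes of peroxisomal beta-oxidation, Hsd17b4, Acaa1b, Acaa1a, Scp2 and Acox3 rose and Ehhadh was not tested. Hsd17b4, the bifunctional protein for hydration and dehydrogenation of branched and very-long-chain acyl-CoAs, read 10.54, 10.50, 11.12 and 11.43 before birth and 11.74, 11.96, 12.06 and 12.16 after it. Each array from e17.5 on was above the one before, and P12 was 3.07-fold over e15.5 (slope 0.26, SE 0.027, adjusted p = 0.00088). Acaa1b, a thiolase that makes the final cut, read 7.59, 8.25, 9.66 and 10.55 before birth and 10.63, 10.50, 11.30 and 11.36 after it. Among members that were above the floor at e15.5 it had the largest fold, 13.6-fold at P12 over e15.5 (slope 0.53, SE 0.074, adjusted p = 0.00216). Acaa1a, the other thiolase, was bright throughout: 11.52, 11.76, 12.04 and 12.25 before birth and 12.51, 12.49, 12.44 and 12.50 after it. Its postnatal values had an SD of 0.03 and lay above every embryonic value, and P12 was 1.98-fold over e15.5 (slope 0.14, SE 0.026, adjusted p = 0.0049). The thiolases are near-identical paralogues, and whether their probes cross-hybridize was not tested.

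Scp2, whose long form is a thiolase for branched chains and whose short form carries sterols, read 10.59, 11.42, 12.69 and 12.93 before birth and 13.32, 13.30, 12.98 and 12.96 after it. The postnatal values were all above the embryonic ones, and P0 was 6.65-fold over e15.5 (slope 0.32, SE 0.087, adjusted p = 0.0219). Without e15.5 or e16.5 the adjusted p was 0.111 or 0.0667. Of its other probes, ILMN_2705881 passed (slope 0.30, adjusted p = 0.0279 over single probes) and ILMN_1221684 did not (slope 0.35, adjusted p = 0.0682). Acox3, an oxidase that opens the pathway for branched acyl-CoAs, read 7.49, 7.65, 7.67 and 8.14 before birth and 7.98, 8.01, 8.32 and 8.32 after it. It was dim but climbed, with P5 at least 1.77-fold over e15.5 (slope 0.12, SE 0.022, adjusted p = 0.00466). Ehhadh, the other bifunctional protein and a classical PPARA target in liver, stayed near the floor at 6.82 to 7.48.

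Ech1, a dienoyl-CoA isomerase for unsaturated chains that is also found in mitochondria, rose with the least scatter relative to its slope. It read 11.09, 11.43, 12.11 and 12.60 before birth and 12.43, 13.19, 13.43 and 13.51 after it. The last 3 arrays were the highest, and P12 was 5.35-fold over e15.5 (slope 0.36, SE 0.032, adjusted p = 0.000538). Crat, which turns acetyl-CoA into acetylcarnitine for export and is also mitochondrial, read 8.11, 8.22, 9.07 and 9.81 before birth and 10.0, 9.56, 9.92 and 10.13 after it. The groups overlapped only through e18.5 and P2, and P12 was 4.03-fold over e15.5 (slope 0.29, SE 0.055, adjusted p = 0.00558). Cat, the catalase that breaks down hydrogen peroxide, read 7.96, 8.46, 9.01 and 9.83 before birth and 9.99, 9.73, 10.83 and 9.44 after it. P5 stood out as the highest array, 7.35-fold over e15.5, and P12 lay below e18.5 (slope 0.29, SE 0.081, adjusted p = 0.0229). That call was lost without e15.5, e16.5 or P5 (adjusted p 0.0614 to 0.111).

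The alpha-oxidation and remaining auxiliary enzymes were at or near the floor. Hacl1, the lyase of alpha-oxidation, reached 7.5 on 2 arrays (7.91 at e18.5 and 7.55 at P2) and read 6.86 to 7.47 on the others. Its line did not pass (slope 0.086, SE 0.042, adjusted p = 0.136). Without e18.5 the adjusted p was 0.0166. The features tested were those chosen on all 8 arrays, and without e18.5 Hacl1 reached 7.5 at P2 only. Phyh, the hydroxylase that acts on phytanic acid, stayed at 6.79 to 6.91. The racemase Amacr read 6.77 to 6.95 and the enoyl-CoA reductase Pecr 6.88 to 7.09. These probes do not say whether the transcripts were absent, only that their signal did not leave the floor.

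**Figure D2:**
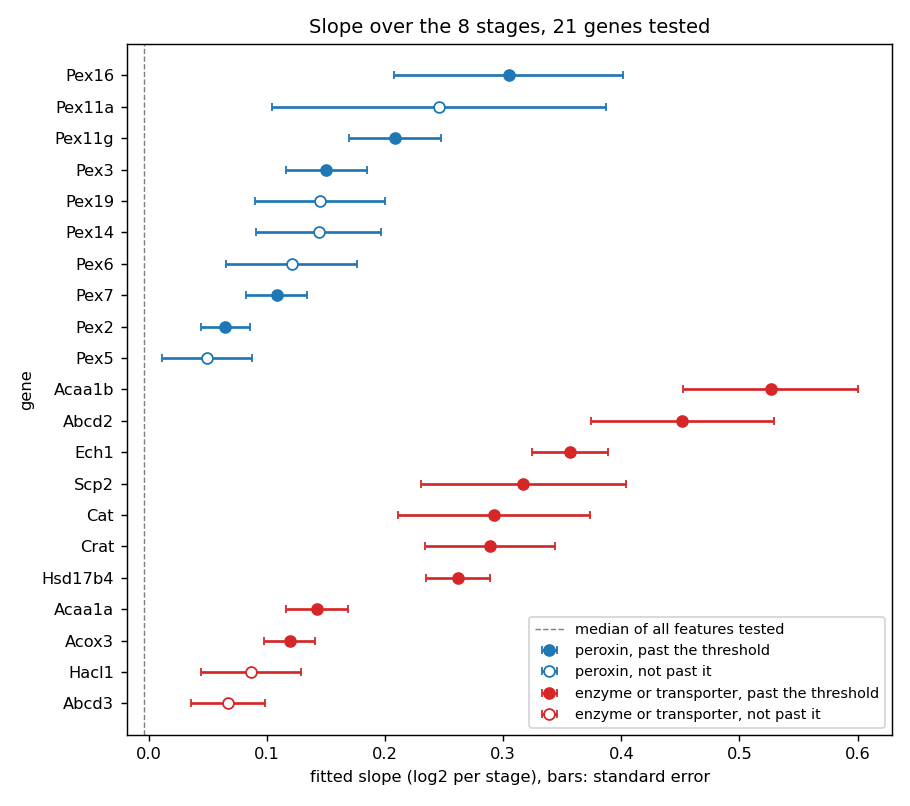
Fitted slope in log2 per stage (horizontal axis) with its standard error as a bar for the 21 tested genes, by class, with open symbols for genes not past the threshold and a dashed line at the median of all features tested. Slopes ran from 0.049 for Pex5 to 0.53 for Acaa1b, and 14 passed an adjusted p under 0.05.

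Several genes were measured by more than 1 probe. The 29 genes had 51 probes, 14 genes had several, and 10 of the 22 probes not chosen passed the filter on low values. Of these 10, 9 had a slope of the same sign as the chosen probe, and the exception was the Pex19 probe given above. The calls differed for 2 of the genes that passed: the other Pex3 probe missed the threshold with a similar slope (0.16, adjusted p = 0.056), as did the Scp2 probe named above. The other tested probe of Crat passed with a smaller slope (0.19, adjusted p = 0.00343), and that of Pex6 was close to flat (0.027, adjusted p = 0.715).

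Much of the increase preceded birth. Of all 29 members, tested or not, 26 were higher at e18.5 than at e15.5. All 21 tested members were higher, while 48.9% of all features tested were. The median difference was 0.80 log2 for the 13 peroxins and 0.81 for the 16 enzymes and transporters, against 0.00 over all features. The muscle and epidermis means were 12.61 and 11.70 at e15.5 and 7.66 and 7.62 at e18.5. Their part in these differences was not tested. Steps of 1 log2 or more between neighbouring stages were made by 6 members and have no replicate check. The difference of Abcd2 between P0 and e18.5 was just under that size before rounding and is not counted. Pex11a was higher by 1.47 log2 at e16.5 than at e15.5, the only member with such a step, against 1.26% of features tested. At e17.5, 5 members were that much higher than at e16.5, against 2.23% of features: Pex11a by 1.97, Acaa1b by 1.41, Abcd2 by 1.31, Scp2 by 1.27 and Pex16 by 1.16. Pex16 was higher by a further 1.24 at e18.5 than at e17.5, against 1.99% of features. After birth Cat was the only member with such steps. It was higher by 1.10 at P5 than at P2, against 1.49% of features with a rise of 1 log2 or more. Its difference at P12 from P5 was -1.40, against 0.739% of features with a drop of 1 log2 or more.

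After birth, 9 of all 13 peroxins were lower at P12 than at P0 and 4 higher, and 7 of all 16 enzymes and transporters were lower and 9 higher. Counting tested members only, 9 peroxins were lower and 1 higher, and 4 enzymes and transporters were lower and 7 higher. Over all features tested, 50.8% were lower. The difference between the classes was not tested. Several of these differences were close to 0, such as -0.01 for Acaa1a, -0.03 for Pex2 and -0.04 for Pex6. Over all members of each class the median of P12 minus P0 was -0.05 log2 for peroxins and 0.02 for enzymes and transporters, against 0.00 over all features. The lowest differences were -0.75 for Pex11a, -0.56 for Pex14 and -0.55 for Cat, and the highest were 1.09 for Ech1, 0.73 for Acaa1b and 0.43 for Hsd17b4. Among the 21 tested members, P0 was the highest array for 9, against 8.06% of all features tested. The 9 were the peroxins Pex3, Pex19, Pex5, Pex7, Pex14 and Pex2 with Abcd3, Acaa1a and Scp2. P12 was the highest for 4 of the 21 (Hsd17b4, Acaa1b, Ech1 and Crat), against 19.9% of all features tested. The muscle and epidermis means were high on the P0 array as well, and their part in these differences from P0 was not tested.

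**Figure D3:**
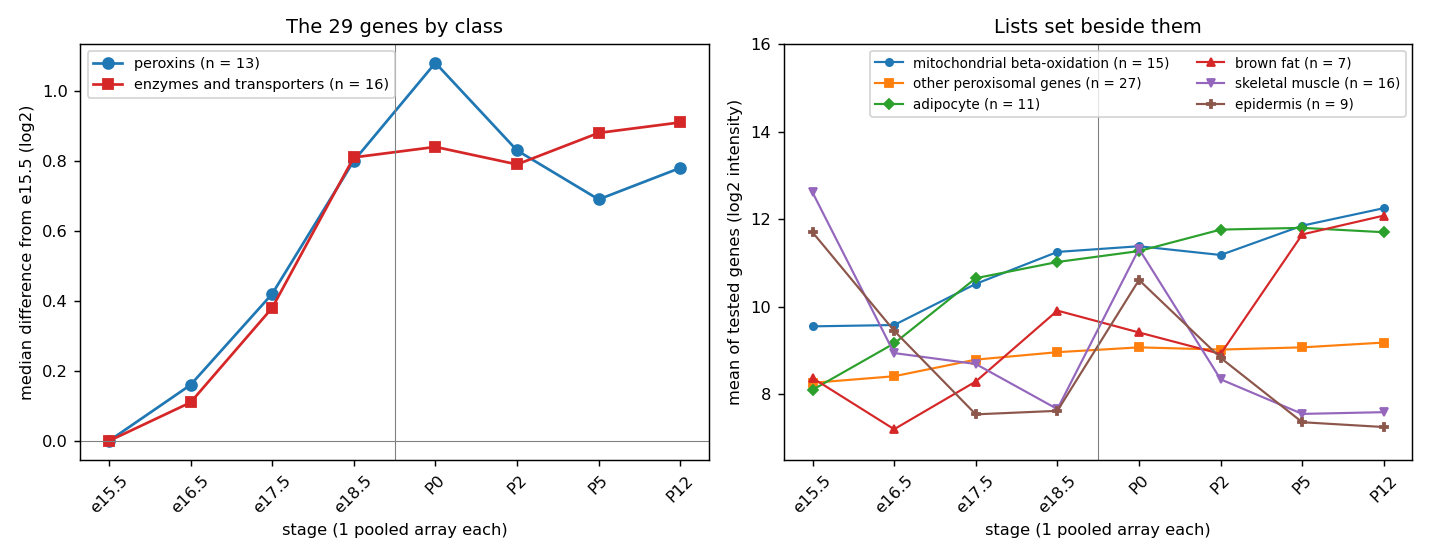
Left, median log2 difference from e15.5 (vertical axis) at each stage (horizontal axis) for the 13 peroxins and the 16 enzymes and transporters. The peroxin median was 1.08 at P0 and 0.78 at P12, and that of enzymes and transporters 0.84 at P0 and 0.91 at P12. Right, the mean log2 intensity of the tested genes of 6 other lists at the same stages; the muscle and epidermis lines are high at e15.5 and P0, and the vertical line marks birth.

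**Figure D4:**
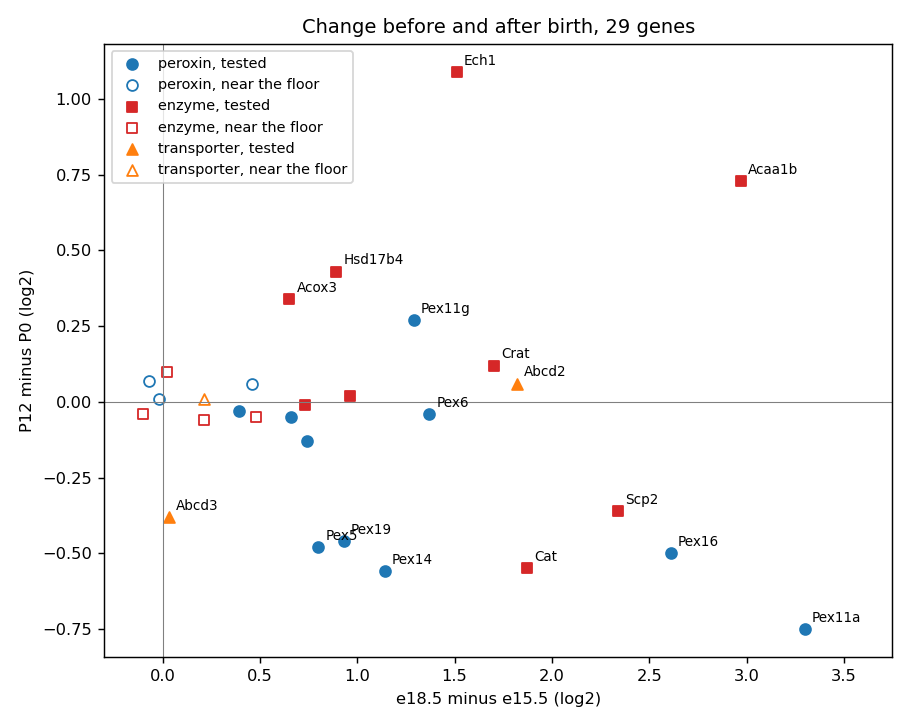
For each of the 29 genes, the difference of e18.5 minus e15.5 (horizontal axis, log2) against that of P12 minus P0 (vertical axis, log2), coloured by class, with open symbols for genes near the floor. Ech1, Acaa1b and Hsd17b4 lie highest, and Pex11a lies far right and lowest.

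The birth comparison, postnatal arrays against embryonic arrays, gave 0 members past an adjusted p of 0.05 with limma. Only 0.0134% of features tested passed as higher and 0% as lower, so the fit called almost nothing in the series. At an unadjusted p under 0.05, 16 members were higher after birth (6 peroxins and 10 enzymes and transporters) and 0 were lower, where 14.5% of features tested were higher. In 8 members every postnatal array exceeded every embryonic one (Pex3, Pex7, Pex2, Abcd2, Abcd3, Hsd17b4, Acaa1a and Scp2), which 8.21% of features tested did. Abcd2 averaged 9.96 ± 0.29 after birth and 7.98 ± 0.93 before it (SD over 4 stages each; difference 1.97, SE 0.42, adjusted p = 0.0538). Hsd17b4 averaged 11.98 ± 0.18 after birth and 10.90 ± 0.46 before it (difference 1.08, SE 0.22, adjusted p = 0.0538). Abcd3 averaged 10.81 ± 0.17 after birth and 10.38 ± 0.04 before it (difference 0.43, SE 0.10, adjusted p = 0.0599). Abcd3 differed by 0.03 between e18.5 and e15.5 and by 0.66 between P0 and e18.5. Over the same spans Abcd2 differed by 1.82 and 1.0. These differences rest on single arrays and have no replicate check. The count of 0 depends on the e18.5 array. Without that array 17 members (Hacl1 among them) passed as higher. Of the 7446 features 1880 passed in either direction, against 1 with all arrays. The count of 0 also ended with limma's array weights (12 members, 1798 features). With the muscle mean as a covariate 3 members and 184 features passed, and with the epidermis mean 6 members and 717 features.

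Calls of the trend in the members depended most on the earliest arrays. Over the whole series, 2905 of the 7446 features passed in either direction with all arrays. Late arrays mattered as well. Without P12, 1890 features and 14 members passed, with Pex2 lost and Pex14 gained. Without P5 and P12, 1092 features and 14 members passed, with Pex2 and Acox3 lost and Pex19 and Pex14 gained. With P5 alone left out, 11 members and 2281 features passed (Pex16, Pex2 and Cat lost). With P2 alone left out, 12 members and 2627 features passed (Pex16 and Pex2 lost). Leaving out e15.5 left 9 members past the threshold, with Pex16, Pex7, Pex2, Scp2 and Cat lost, and 2164 features. Leaving out e18.5 gave 17 members, with Pex19, Pex14 and Hacl1 gained, and 3058 features. With the muscle mean or the epidermis mean as a covariate, 10 members passed under each, with 1807 features for muscle and 1574 for epidermis: the same 5 were lost both times, and Abcd3 was gained (adjusted p 0.048 and 0.0315). Without both e15.5 and P0, the arrays where both marker means were highest, 9 members and 2126 features passed. With days in place of stage order, 1889 features and 4 members passed: Acox3, Hsd17b4, Acaa1b and Ech1. Without both e15.5 and e16.5, 782 features passed, and 3 members as higher: Hsd17b4, Acaa1b and Ech1, which also passed under every other setting of the trend that was run.

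Among other peroxisomal genes, 15 also rose. Of 49 further genes on the list, 41 had a probe and 27 were tested. The 15 stood against 0 that fell (18.3% and 20.7% over all features tested), with a median slope of 0.12. The steepest were Nudt7, a diphosphatase of coenzyme A (0.44, SE 0.044), Ephx2, the soluble epoxide hydrolase (0.40, SE 0.070), Ddo, D-aspartate oxidase (0.29, SE 0.030), the membrane protein Pxmp2 (0.29, SE 0.080), Nudt12, an NADH diphosphatase (0.26, SE 0.017) and Gstk1, a glutathione transferase (0.26, SE 0.041), all with adjusted p of 0.0236 or less. Nudt7, for example, had a level of 8.92 at e15.5 and of 11.82 at P12. The lowest slope of the 27 was that of Slc25a17, which did not pass (-0.21, SE 0.10, adjusted p = 0.134). It read 9.95 at P0, 7.97 at P5 and 7.73 at P12.

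Mitochondrial beta-oxidation genes, which act on shorter chains, offer a comparison. All 15 that were tested rose, where 18.3% of all features tested did, with slopes of 0.28 to 0.47 and a median of 0.39 log2 per stage. The probes of Cpt1a and Hadh stayed near the floor and were not tested. The 15 were also higher at P12 than at P0, with a median difference of 0.67, while 50.8% of all features tested were lower. The difference between these genes and the peroxisomal ones was not tested.

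Among transcription regulators linked to peroxisome genes, 7 of 10 were tested and 3 rose. Pparg, the master regulator of fat cell formation, read 9.09, 10.95, 11.83 and 12.11 before birth and 11.28, 11.93, 11.61 and 11.53 after it. It was low at e15.5 only, and its line did not pass (slope 0.24, SE 0.11, adjusted p = 0.118). Rxra and Rxrg, partners of the PPARs, rose with slopes of 0.11 each, and Esrra, a receptor that drives oxidative genes, with 0.17. Ppargc1a, a coactivator of oxidative metabolism, read 9.33 at e18.5 and 7.06 to 7.98 on the other arrays. Ppara, the PPAR of fatty acid breakdown, was near the floor at 6.77 to 7.46 until it reached 8.11 at P12, and Ppard and Prdm16 were near the floor throughout. Rxrb and Ppargc1b were tested and did not pass.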

How the data were processed

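Total RNA from 1 pool per stage was hybridized to MouseRef-8 BeadChips, and per the labels' protocols BeadStudio extracted the data. The deposited values are the authors' processed log2 intensities. The log base was read from their range, and the sorted columns were equal to within 0.005. How background and normalization were handled is not given in the sources used here. Equal distributions hide any change in total signal. A second table was not used because its 16 per-sample columns match no sample label.

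The platform annotation named the probes: of 25697, 23978 had 1 symbol, 0 several and 1719 are unnamed here. Features reaching 7.5 on at least 2 of 8 arrays were tested (7446 of 18312). This set was kept unchanged when arrays were left out. Limma 3.58.1 in R 4.3.3 fitted stage order, 1 to 8, as a line with 6 residual degrees of freedom, and postnatal against embryonic arrays, with Benjamini-Hochberg adjustment at 0.05. The procedure was tested on simulated data. Neighbouring stages have no test. The number of arrays limits the precision.

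All 29 members are named. Values for every array are given for members past the threshold, the 3 with the smallest slopes, and those with a step of 1 log2 or more. Of other peroxisomal genes the 6 steepest and the gene with the lowest slope are named, and of regulators up to 5 get values. A few further values of regulators and list genes were chosen after they were seen. Members and gene lists were chosen with earlier results of these data known. Marker lists covered adipocytes, brown fat, skeletal muscle, epidermis, hepatocytes, erythroid cells and macrophages. Of hepatocyte markers 5 of 6 tested fell, of erythroid markers 4 of 7 fell, and of macrophage markers 3 of 8 rose. Alternatives were the filter, moderation, array weights, days in place of stage order, centring, the probe used, marker means as covariates and arrays left out.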

Additional observations from a re-analysis of the deposited data

How the results depend on the processing

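No stage was replicated, so leaving out an array removes a stage. No paired analysis was possible because each stage has 1 array. The 14 members called higher became 4 with days in place of stage order, 9 without e15.5 and P0, 3 without e15.5 and e16.5 (chosen after seeing the data, as for all values under it), and 9 to 17 with single arrays left out. Features called on the trend, 2905 in all, became 1889 with days, 1807 and 1574 with the muscle and epidermis covariates, 1092 without P5 and P12, 782 without e15.5 and e16.5, and 1890 to 3058 with single arrays left out. Members called lower stayed at 0 except for 1 without e15.5 and e16.5, Pex11a. For birth, the 0 members called higher became 12 with array weights, 3 and 6 with the muscle and epidermis covariates, and 0 to 17 with single arrays left out. The 1 feature called became 4 with no filter, 1798 with array weights, 2 with the probe of largest variance, 184 and 717 with the covariates, 0 without P5 and P12 or without e15.5 and e16.5, 6 without e15.5 and P0, and 0 to 1880 with single arrays left out. The peroxin median slope, 0.12, was 0.061 with the mean of all probes, 0.22 without P5 and P12, 0.062 without e15.5 and P0, 0.022 without e15.5 and e16.5, and 0.062 to 0.16 with single arrays left out. That of enzymes and transporters, 0.13, was 0.19 without P5 and P12, 0.075 without e15.5 and e16.5, and 0.12 to 0.15 with single arrays left out. Trend slopes changed sign without e15.5 and e16.5 in Pex5 (-0.056), Pex6 (-0.038) and Pex11a (-0.22). Birth differences changed sign in Pex5 (-0.032 without e15.5 and P0, -0.10 without e15.5 and e16.5), Pex6 (-0.16) and Hacl1 (-0.013) without e15.5 and e16.5, and Pex11a (-0.21 with array weights, -0.14 without e15.5 and P0, -0.60 without e15.5 and e16.5). The cause was not tested. The other single-gene values kept direction and call in 364 trend and 372 birth cases, lost the call in 61 trend cases and gained it in 10 trend and 38 birth cases. The number of members with a large step, 6, was also 6 with the mean of all probes. Days were not applied to the birth fit, which has no stage scale, or to the class medians, whose unit would differ. Probes near the floor give compressed differences.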
